A study of Drosophila melanogaster with 8 samples.

Results

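The 40 genes described here are the fruit fly's Acp and Sfp genes, which encode accessory gland proteins and other seminal fluid proteins. They were taken by symbol from the deposited annotation, as names that begin with Acp or Sfp and a cytological number, and they are 40 of the 14865 genes in the count table, 28 with Sfp and 12 with Acp symbols. The rule left out Acp26Aa, Acp26Ab, Acp36DE, Acp29AB and Acp62F, as well as the cuticle gene Acp65Aa, whose symbol stands for adult cuticle protein. Messenger RNA of whole Drosophila melanogaster was sequenced from 3 libraries of DHR39 mutants and 5 libraries of controls. The deposited sample sheet gives the genotype of the mutants as DHR393.48 and that of the controls as w1118, a stock with a mutation of the white eye colour gene. All flies of both groups were staged as newly emerged adults, aged to day 8 and kept on food with 8% yeast and 9% sugar. The same control libraries also belong to a second series. The labels describe neither the lesion of the DHR39 allele nor the number of flies in a library.

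The accessory gland is a paired secretory organ of the male reproductive tract, and most of its epithelium consists of main cells, with a minority of secondary cells. Its products are mixed with those of the ejaculatory duct and bulb and passed to the female with the sperm. In the mated female, seminal fluid proteins raise egg laying, lower receptivity to other males and take part in sperm storage. Many are short secreted peptides, and others belong to known families such as protease inhibitors, serpins and lectins. DHR39, the product of the gene Hr39, is a nuclear receptor, and the study's title asks how it regulates the fertility of males and the genes of this gland.

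Total counts ran from 16072497 to 19935574 in the DHR39 libraries and from 17345101 to 19093675 in the controls. Hr39 stood at 24.4, 26.5 and 30.1 CPM (read counts on the usual library-size scale, with TMM factors) in DHR39, against 39.9, 34.6, 33.8, 35.6 and 37.0 CPM in controls. The DHR39 mean was 74.6% of the control mean, a fall of 0.42 ± 0.10 on the log2 scale (SE, edgeR adjusted p = 0.0119). It did not pass when DHR39 replicate 1 or 2 was left out (edgeR adjusted p = 0.0515 and 0.0508) or when only library totals set the scale (0.0593). With the lesion unknown, the RNA level checks the genotype label only weakly. The flies' sex is not among the labels. The male-specific RNA roX1 ran from 574 to 608 CPM in DHR39 and from 614 to 693 CPM in controls, and the yolk protein gene Yp1, a female marker, from 0.288 to 2.09 CPM in DHR39 and from 0.654 to 2.60 CPM in controls. The summed level of 11 female germline, eggshell and yolk genes was 19.2 to 24.7 CPM in DHR39 and 17.8 to 25.5 CPM in controls. Whether replicates were separate cultures is not stated, and the p-values therefore reflect only the variation among these libraries, part of which may be technical.

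RNA of most Acp and Sfp genes fell in DHR39 flies. All 40 passed the filter on low counts, of which 34 fell, 0 rose and 6 showed no call (edgeR quasi-likelihood test, two-sided, adjusted p under 0.05). Of all tested genes, 10.7% fell and 6.58% rose by the same rule, that is 1444 and 889 genes. Scaled by library totals only, 1040 genes fell and 1997 rose, and the members' count was again 34. No member was higher at an unadjusted p under 0.05 in edgeR (0 genes), and DESeq2 and limma voom also called 0 higher. The median log2 fold change of the 40 was -1.84, against -0.0044 over all tested genes. Of the 34 that fell, 33 fell at least 2-fold, as did 5.03% of all tested genes. In 33 members every DHR39 library lay below every control library, which held for 13.4% of all tested genes, and in 0 members did every DHR39 library lie above every control, against 9.74% of all tested genes. Because whole flies were sequenced, fewer cells that make these RNAs and less RNA per cell cannot be told apart. Genotype and stock also coincide, so the DHR39 allele and other differences between the stocks cannot be told apart.

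**Figure D1:**
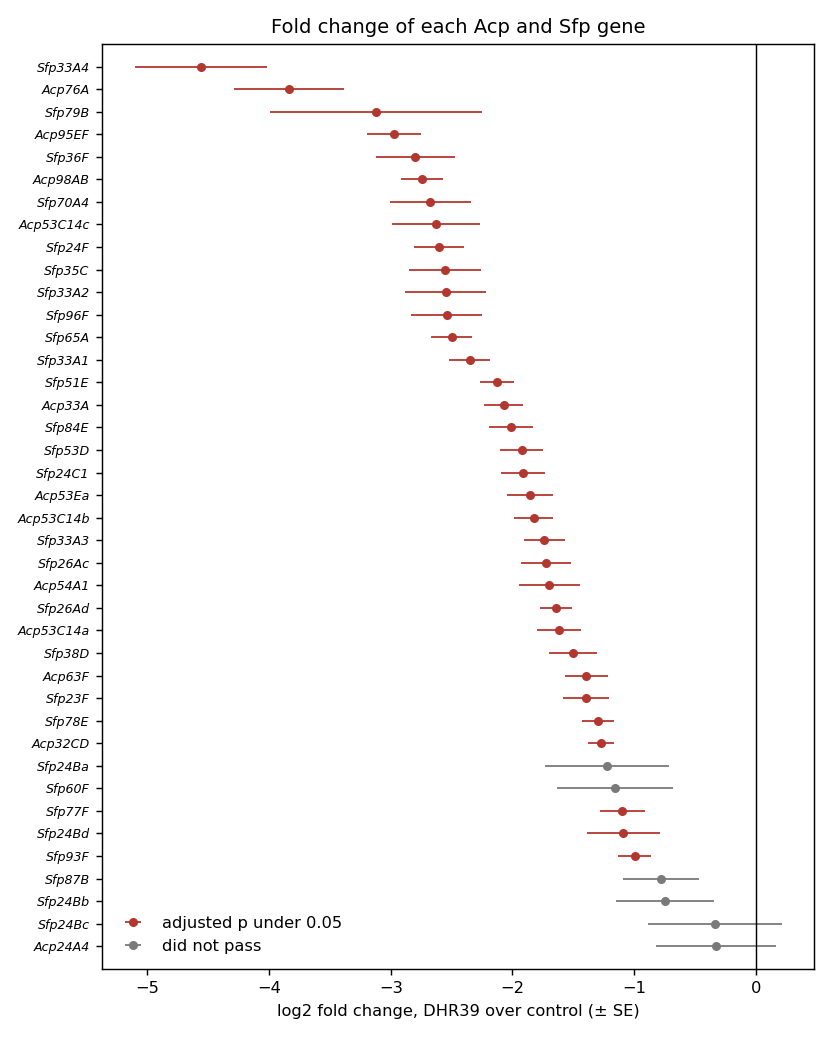
Log2 fold change of DHR39 over control for each of the 40 Acp and Sfp genes (points, with SE as bars), ordered from the most reduced at the top. Every point lies below 0, from -4.56 for Sfp33A4 to -0.33 for Acp24A4, and the 6 grey genes did not pass the test.

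Together the 40 genes took 0.278%, 0.201% and 0.221% of all counts in the DHR39 libraries. In control replicates 1 to 5 they took 0.475%, 0.807%, 0.715%, 0.616% and 0.585%. The mean share was 0.233% ± 0.0404 over the 3 DHR39 libraries and 0.640% ± 0.127 over the 5 controls (± SD), and the groups did not overlap. In the highest control, replicate 2, the 6 genes that did not pass the test made up 41.2% of the summed level. Those 6 genes made up 39.3% to 41.7% of the summed level in the DHR39 libraries, and 13.9% to 22.0% in the other 4 controls. Without them, the 34 genes that fell summed to 1502, 1150 and 1245 CPM in DHR39, against 4097, 4997, 6346, 4851 and 4901 CPM in controls. These splits follow from the test result and are given as a description.

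**Figure D2:**
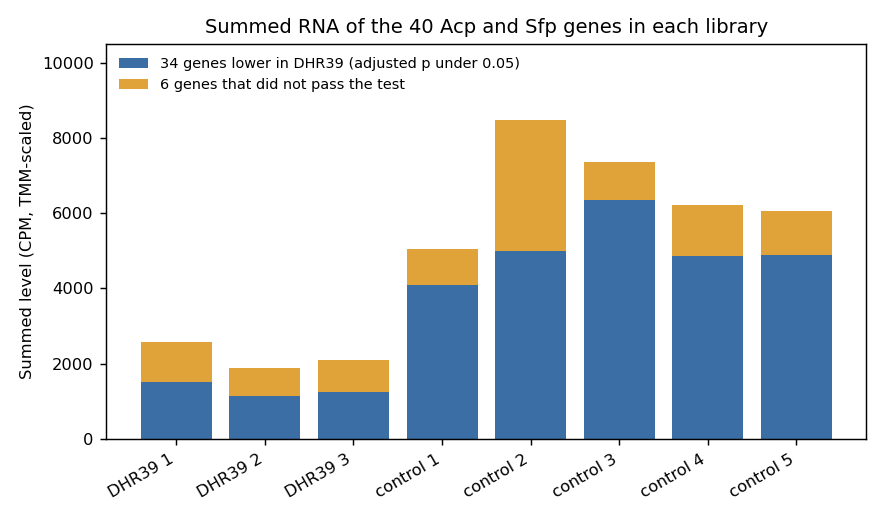
Summed level of the 40 genes in each library, in TMM-scaled CPM, split into the 34 genes that fell (blue) and the 6 that did not pass (orange). The DHR39 bars reach 1895 to 2576 CPM and the control bars 5056 to 8491 CPM, with the orange part largest in control replicate 2.

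The most abundant members were among those that fell, with the exceptions of Sfp87B and Sfp60F. On a scale of level per exon length (RPKM, here CPM per kilobase of exon), Acp95EF, a peptide of 52 residues, stood highest, at 361 RPKM in DHR39 and 2829.6 RPKM in controls. That control level ranked 7 among all tested genes with a known length. Acp95EF counted 105, 79.5 and 78.3 CPM in DHR39, against 430.4, 686, 902, 744 and 675 CPM in controls, and every DHR39 library lay far below the lowest control. Its log2 fold change was -2.97 ± 0.22 (edgeR adjusted p = 3.0e-06). Acp54A1, of 46 residues, counted 88.8, 178 and 138 CPM in DHR39 and 621, 405, 479.9, 339.7 and 340.0 CPM in controls. It fell by 1.70 ± 0.25 (edgeR adjusted p = 0.000518), and unlike most members it was lowest in DHR39 replicate 1 and highest in control replicate 1. By control level per length the order of the top 6 was Acp95EF, Sfp87B, Acp54A1, Acp53Ea, Sfp60F and Acp53C14b. Their control means of 2829.6, 1892, 1429, 1204, 1199 and 1036 RPKM did not separate neighbours clearly: each neighbouring pair differed by less than the larger of its SDs over the control libraries. In DHR39 the highest was Sfp87B, at 1102 RPKM, followed by Sfp60F at 538 and Acp54A1 at 441 RPKM. Control levels of the 40 spanned 18.8 to 2829.6 RPKM, and 8 ranked among the 100 most abundant tested genes. Level and fold change were hardly related across the members (Spearman's rho = 0.087 over 40 genes, which share libraries and are not independent).

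**Figure D3:**
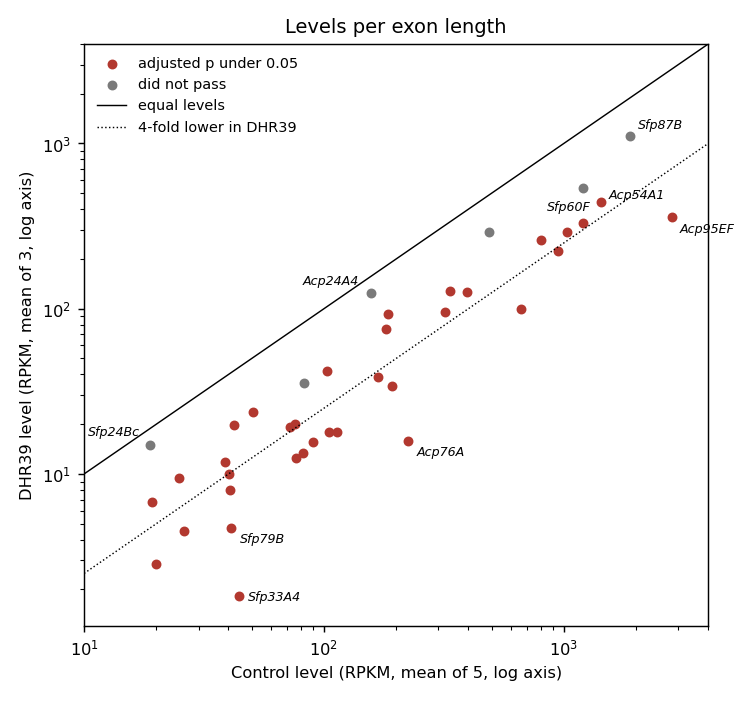
Mean level per exon length in controls (horizontal) against DHR39 (vertical), in RPKM on log axes, 1 point per gene. All 40 points lie below the line of equal levels, and many of the red points, which passed the test, lie near or below the dotted line that marks a 4-fold lower level in DHR39.

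The member with the most negative fold change was Sfp33A4, whose coding sequence predicts a protein of 50 residues. It had 12, 10 and 3 counts in the DHR39 libraries (0.691, 0.474 and 0.176 CPM), against 79, 138, 316, 185 and 217 counts in controls (4.56, 7.92, 18.8, 9.77 and 12.9 CPM). It fell by 4.56 ± 0.54 (edgeR adjusted p = 0.000109), and the DHR39 mean was 4.14% of the control mean. The lowest control was still several times the highest DHR39 library. Acp76A, which encodes a serpin of 388 residues and is the longest protein of the 40, counted 23.8, 11.8 and 21.2 CPM in DHR39, against 132, 178, 500.0, 207 and 331 CPM in controls. It fell by 3.84 ± 0.45 (edgeR adjusted p = 0.000101). Controls of both genes spread widely, with replicate 3 highest, and no DHR39 library came near them.

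Sfp79B, a predicted peptide of 35 residues, had the third most negative fold change, at -3.12 ± 0.87 (edgeR adjusted p = 0.0277), and the widest spread. It counted 0.864, 0.900 and 1.52 CPM in DHR39, against 0.866, 2.98, 23.8, 8.87 and 11.1 CPM in controls. Control replicate 1 lay within the DHR39 range, so Sfp79B was the only gene of the 34 whose groups overlapped. Its call ended without DHR39 replicate 1, 2 or 3 (edgeR adjusted p = 0.0935, 0.101 and 0.0722), with limma voom (0.277) and with a robust edgeR fit (0.130). Over all alternatives its adjusted p ran from 3.2e-05 to 0.277. The log2 fold change was -2.45 without control replicate 3.

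The next member by fold change after Acp95EF was Sfp36F, with 35 residues. It counted 0.691, 0.711 and 0.762 CPM in DHR39, against 2.60, 5.05, 6.06, 5.33 and 6.24 CPM in controls, and fell by 2.80 ± 0.33 (edgeR adjusted p = 9.1e-05). Acp98AB, with 25 residues the shortest product of the 40, counted 16.2, 15.8 and 19.9 CPM in DHR39, against 87.5, 145, 131, 106 and 109 CPM in controls. It fell by 2.74 ± 0.17 (edgeR adjusted p = 1.1e-06). Sfp70A4 counted 8.18, 3.55 and 6.10 CPM in DHR39, against 18.1, 45.0, 48.9, 36.9 and 39.3 CPM in controls, and fell by 2.67 ± 0.33 (edgeR adjusted p = 0.000157). In all 3 genes the highest DHR39 library stayed under the lowest control.

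Members lie side by side in the genome in 4 groups, with less than 20 kb between neighbours, on the BDGP6 assembly of Ensembl release 115. The largest is on arm 2R from 16744295 to 16751495 and holds Sfp53D, Acp53C14a, Acp53C14b, Acp53Ea and Acp53C14c in that order, all on the minus strand. The Acp53 genes are duplicates of each other, and variants of Acp53Ea have been associated with sperm competition between males. All 5 fell, with log2 fold changes of -1.92 ± 0.18, -1.62 ± 0.18, -1.82 ± 0.16, -1.86 ± 0.19 and -2.63 ± 0.36 in that order. Acp53C14c, the least abundant of the duplicates at 76.6 RPKM in controls, thus had the most negative estimate. It counted 11.1, 4.27 and 5.69 CPM in DHR39, against 22.7, 38.6, 63.2, 40.5 and 51.0 CPM in controls (edgeR adjusted p = 0.000329). Acp53Ea counted 193, 113 and 160.5 CPM in DHR39, against 432, 577, 706, 561 and 543 CPM in controls (edgeR adjusted p = 3.1e-05). Acp53C14b, likewise one of the most abundant members, counted 209, 138 and 172 CPM in DHR39, against 505, 644, 755, 571 and 579.9 CPM in controls (edgeR adjusted p = 1.1e-05). No gene of the group had overlapping groups of libraries. In every gene of the group DHR39 replicate 2 was the lowest library and control replicate 3 the highest. Related copies may share reads, so the separate values of this group are uncertain to that extent.

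A second group is on 2L from 11837243 to 11840329, where Sfp33A4, Sfp33A2 and Sfp33A3 follow each other within 3087 bp on the plus strand. All 3 fell, with log2 fold changes of -4.56 ± 0.54, -2.55 ± 0.33 and -1.74 ± 0.17. The neighbours thus stood at 4.14%, 17.4% and 29.9% of their control means. Sfp33A3 had the highest control level per exon length of the 3, at 319 RPKM, against 44.2 RPKM for Sfp33A4 and 26.2 RPKM for Sfp33A2. Sfp33A3 counted 45.3, 40.6 and 33.9 CPM in DHR39, against 101, 118, 173, 132 and 143 CPM in controls. Sfp33A2 counted 2.48, 0.711 and 1.41 CPM in DHR39, against 6.58, 11.1, 10.3, 9.08 and 7.07 CPM in controls. Groups of both genes were well separated. Sfp33A1 and Acp33A lie farther off on the same arm, and they fell too, at -2.35 ± 0.17 and -2.07 ± 0.16.

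The other 2 groups, also on 2L, held most of the genes that did not pass. Sfp24Ba, Sfp24Bd, Sfp24Bb and Sfp24Bc lie from 3667977 to 3670581, within 2605 bp on the minus strand. Acp24A4 and Sfp24C1 lie from 3693184 to 3701092. The Sfp24B proteins and Acp24A4 carry the Kunitz domain of protease inhibitors. Of these 6 neighbours only Sfp24Bd and Sfp24C1 fell. Sfp24C1 counted 8.58, 7.11 and 6.10 CPM in DHR39, against 20.3, 25.0, 34.7, 28.6 and 28.7 CPM in controls, and passed at -1.92 ± 0.18 (edgeR adjusted p = 1.7e-05). Sfp24Bd counted 13.1, 9.95 and 4.10 CPM in DHR39, against 24.0, 22.7, 13.8, 20.4 and 15.8 CPM in controls, and fell by 1.09 ± 0.30 (edgeR adjusted p = 0.0265). Its groups came within 1 CPM of each other without overlap. The call of Sfp24Bd was marginal and ended without DHR39 replicate 2 or 3 (edgeR adjusted p = 0.0656 and 0.0558), without control replicate 1, 2 or 4 (0.0534, 0.0527 and 0.0529) and with the robust fit (0.0720). Its range over the alternatives was 0.00117 to 0.0720.

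The 6 genes that did not pass were Sfp24Ba, Sfp24Bb, Sfp24Bc, Acp24A4, Sfp60F and Sfp87B, and control replicate 2 held by far the highest level of each. Sfp60F, at 25172245 to 25172695 on 2R, counted 266, 152 and 225 CPM in DHR39, against 264, 1185, 255, 377 and 311 CPM in controls. Sfp87B, at 12273126 to 12273521 on 3R, counted 464, 408 and 438 CPM in DHR39, against 453, 1449, 559, 659 and 626 CPM in controls. Sfp24Ba counted 22.2, 16.7 and 16.6 CPM in DHR39, against 22.4, 110.4, 19.3, 34.7 and 29.0 CPM in controls. In these 3 genes the DHR39 libraries overlapped only the lower end of the controls. The Kunitz gene Sfp24Bb counted 199, 105 and 94.6 CPM in DHR39, against 162, 470.2, 133.5, 202 and 143 CPM in controls. Sfp24Bc counted 8.64, 2.99 and 5.75 CPM in DHR39, against 3.64, 18.9, 3.98, 6.02 and 3.69 CPM in controls. Acp24A4 counted 114, 59.7 and 71.1 CPM in DHR39, against 54.1, 262, 54.6, 85.1 and 57.3 CPM in controls. In the last 2, DHR39 replicate 1 lay above every control but replicate 2.

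The fitted fold changes of the 6 moved with that library, and 3 of the 6 were lower at an unadjusted p under 0.05. They were -1.23 ± 0.51 for Sfp24Ba (edgeR adjusted p = 0.132), -1.16 ± 0.48 for Sfp60F (0.130), -0.78 ± 0.31 for Sfp87B (0.115) and -0.74 ± 0.40 for Sfp24Bb (0.264). For Sfp24Bc and Acp24A4 they were -0.33 ± 0.55 (0.765) and -0.33 ± 0.49 (0.740). Without control replicate 2 the fold changes of Sfp24Ba, Sfp60F, Sfp87B and Sfp24Bb were -0.51, -0.49, -0.40 and -0.27 (edgeR adjusted p = 0.110, 0.111, 0.0563 and 0.527). Those of Sfp24Bc and Acp24A4 turned to 0.40 and 0.38 without it (0.479 and 0.315). Sfp87B passed when libraries of the same replicate name were paired as a block, at -0.49 (edgeR adjusted p = 0.00744), in a fit to which control replicates 1 and 2 add nothing. With the block Sfp24Bc and Acp24A4 were at 0.26 and 0.29 (0.671 and 0.452). The mean of the other 4 controls was 301.7 ± 55.9 CPM for Sfp60F and 574 ± 91.1 CPM for Sfp87B (SD, n = 4), against 215 ± 57.8 and 437 ± 28.0 CPM in DHR39 (SD, n = 3).

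**Figure D4:**
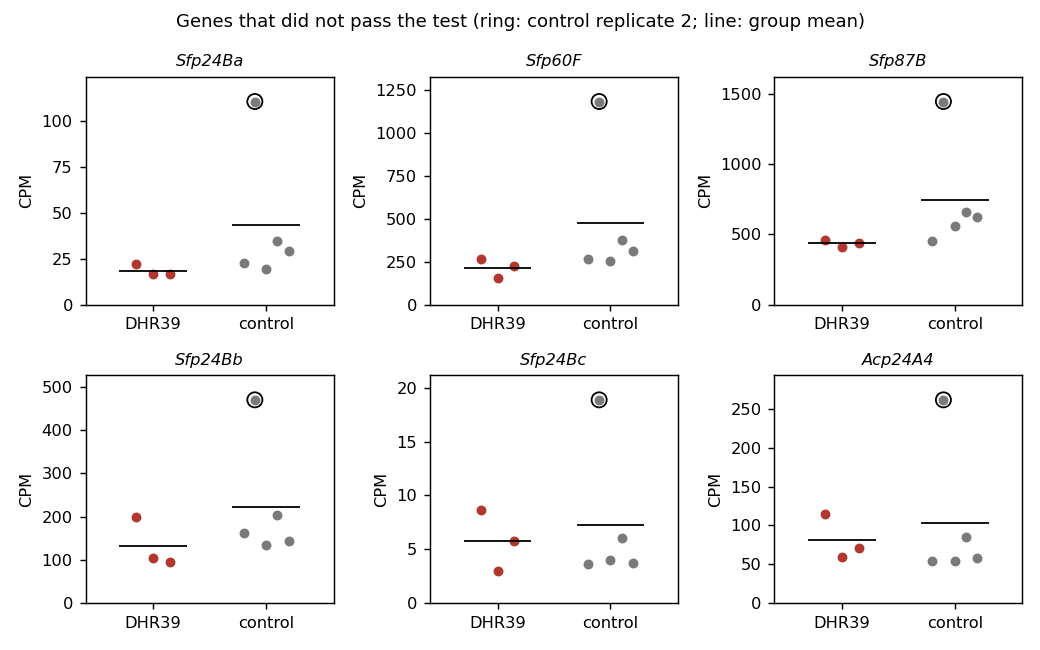
CPM of the 6 genes that did not pass, with 1 point per library, DHR39 in red and control in grey, the line marking the group mean and the ring control replicate 2. The ringed point is the highest of each panel, and for Sfp24Bc and Acp24A4 a DHR39 library lies next below it.

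Relative to the mean of the other 4 controls, control replicate 2 was 2.52 to 4.36 times as high in the 6 genes that did not pass, and 0.267 to 1.34 times as high in the 34 that fell. Over 12661 genes with a mean of at least 1 CPM, 36 (0.284%) were highest in control replicate 2 and at least 2-fold above the next control, and the 6 were among them. The 6 were set apart by the test itself, and 1 far higher control makes a call less likely. Both comparisons of the 6 are therefore descriptions only. The ejaculatory bulb genes Ebp and EbpII were also high in that library, whereas the bulb gene EbpIII was not. Ebp counted 1440, 1358 and 1312 CPM in DHR39, against 1962, 4799, 1639, 2095 and 1449 CPM in controls. EbpII counted 488, 301 and 538 CPM in DHR39, against 501, 1822, 704, 650.3 and 826 CPM in controls. EbpIII counted 1326, 1305 and 1259 CPM in DHR39, against 2057, 1646, 2152, 1612 and 2053 CPM in controls, so that control replicate 2 was among its lower controls. The 11 genes matched to the 12 symbols of the ejaculatory duct and bulb list summed to 4076 to 4250 CPM in DHR39. They summed to 10513 CPM in control replicate 2, against 6591 to 7258 CPM in the other controls. Other genes of the list lacked an excess of this size. The duct products Est-6 and Dup99B had their highest control in replicate 3. Adgf-A was highest in control replicate 2, but at 81.9 CPM against 67.4 CPM in the next control. Of 10 tested genes on that list 8 fell, and the other 2, Ebp and EbpII, did not pass, with a median log2 fold change of -1.13. With the replicate block EbpII passed, at -0.75 ± 0.12 (edgeR adjusted p = 0.00173), and Nplp4 no longer did, at -1.23 ± 0.49 (0.114). EbpII and Ebp lie near Sfp60F on 2R, on the same strand. What these levels contribute to the values of the 6 genes was not tested.

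Among the 34 genes that fell, the control libraries had another order. Control replicate 3 was the highest control in 26 of the 40 members, and in 27.8% of genes with a mean of at least 1 CPM. The excess was greatest in Sfp79B, Acp76A and Sfp33A4, where control replicate 3 was 3.99, 2.36 and 2.14 times the mean of the other controls. The testis list, of 23 measured genes, was also highest in that library, at 10191 CPM against 7496 to 8203 CPM in the other controls and 7898 to 9175 CPM in DHR39, and its part in these values was not tested. DHR39 replicate 1 was the highest mutant library in 35 of 40 members, and in 40.4% of genes of that level. The exceptions, all among the 34, were Acp32CD, Sfp36F, Acp54A1, Sfp79B and Acp98AB, so the genes that did not pass shared this order. Without DHR39 replicate 1 the median log2 fold change of the 40 was -2.01, and without control replicate 3 it was -1.75.

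**Figure D5:**
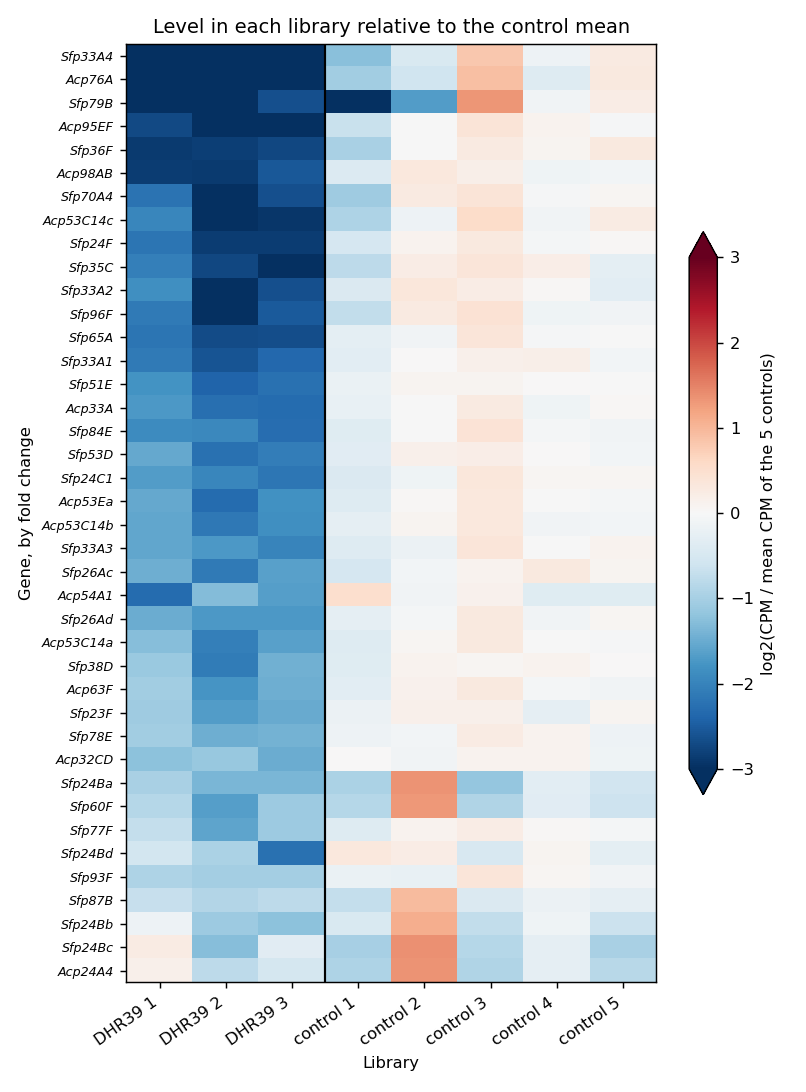
Level of each gene (rows, ordered by fold change) in each library (columns, DHR39 left of control), as log2 of its CPM over the mean of the 5 controls. The DHR39 columns are dark blue in the upper rows, and control replicate 2 is red in the 6 rows of the genes that did not pass.

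The sample sheet joins each DHR39 library to 1 control by a replicate name. Within these 3 pairs, the DHR39 library was the lower in all 3 for 35 of 40 members, and for 26.5% of all tested genes. The 35 are the 34 that fell and Sfp87B. With the names as a block, 35 members fell and 0 rose, while 11.2% of all tested genes fell and 7.9% rose.

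Fold changes of the 34 genes that fell ran from -4.56 to -0.99 on the log2 scale, with a median of -1.97, and their DHR39 means from 4.14% to 50.2% of control. Sfp93F stood at the upper end of that range, with 32.0, 29.8 and 29.8 CPM in DHR39, against 53.2, 52.2, 78.3, 63.5 and 56.8 CPM in controls (edgeR adjusted p = 0.000324). Sfp77F fell by 1.10 ± 0.19 and Acp32CD by 1.27 ± 0.10. Acp32CD was among the steadiest members, at 69.0, 73.4 and 57.5 CPM in DHR39, against 162, 149.7, 173, 172 and 148 CPM in controls. Acp63F, Sfp23F, Sfp38D and Sfp78E likewise lay at 35.4% to 40.7% of control. Sfp24F, of the C-type lectin family, was lower still, at 16.5% of control, with a fall of 2.60 ± 0.21 (edgeR adjusted p = 5.0e-06). Sfp65A, Sfp51E and Acp33A were at -2.50 ± 0.17, -2.13 ± 0.14 and -2.07 ± 0.16, and Sfp35C, Sfp96F, Sfp84E, Sfp26Ac and Sfp26Ad fell within -2.55 to -1.64. Each of these genes had separate groups.

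The members are short genes. Their union of exons measured 168 to 1234 bp, with a median of 400.0 bp, and their predicted proteins 25 to 388 residues, with 22 under 100 residues. A single exon was annotated for 12 of them, 2 exons for 24 and 3 exons for 4. Fold change and exon length were weakly related (Spearman's rho = 0.35 over 40 genes, as a description). Arm 2L, where Hr39 itself lies, held 19 members, of which 15 fell. On 2R 7 of 8 fell, on 3L all 7 and on 3R 5 of 6, and none of the 40 lies on X. The median log2 fold change was -1.73 on 2L and -1.92 on the other arms.

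Other seminal fluid genes moved largely the same way. Of 43 tested genes on a list of seminal fluid genes outside the 40, 39 fell, 2 rose and 2 did not pass, with a median log2 fold change of -1.57. The 2 that rose were Acp26Ab, by 1.25 ± 0.096, and the lipocalin gene NLaz, by 0.37 ± 0.11 (edgeR adjusted p = 4.1e-06 and 0.0341). The call of NLaz ended without DHR39 replicate 1 or 3 (edgeR adjusted p = 0.0980 and 0.164) and without control replicate 3, 4 or 5 (0.0533, 0.0685 and 0.0778), in contrast to that of Acp26Ab, which held under each alternative tried. Acp26Ab counted 415, 342 and 352 CPM in DHR39, against 152, 165, 171, 155 and 137 CPM in controls. The odorant binding protein genes Obp8a and Obp56e did not pass (edgeR adjusted p = 0.470 and 0.0504), although Obp56e passed with the replicate block, at -1.19 ± 0.21 (0.00347). The list summed to 4798 to 5691 CPM in DHR39 and to 17571 to 25025 CPM in controls. Of 9 regulators of gland development and cell identity, 3 fell and 6 did not pass. The 3 were Hr39 itself, Abd-B, a Hox gene of secondary cells, by 0.48 ± 0.091, and dsx, the sex determination factor, by 0.56 ± 0.13 (edgeR adjusted p = 0.00318 and 0.00938). The paired-domain gene prd, which is needed for the gland to form, was at -0.17 ± 0.12 (0.423). Of 23 genes of the testis list 1, Mst84Db, rose and 22 did not pass, with a median log2 fold change of 0.026. With the block the testis gene sa also passed, at -0.73 ± 0.17 (edgeR adjusted p = 0.0157), against -0.58 without it (0.0629). Of 20 symbols on the female germline, eggshell and yolk list, 11 were in the count table and 8 were tested. Of the 8 tested genes 1, yellow-g, rose and 7 did not pass. Counts of yellow-g were low, at 29 to 48 in DHR39 and 11 to 19 in controls (edgeR adjusted p = 0.0151). Only 2 of 9 symbols on the list for the spermatheca and parovaria were in the count table. Of these, CG32833 fell and fit did not pass. The 3 dosage compensation genes did not pass. Dup99B and Obp22a stand both on the seminal fluid list and on that of the duct and bulb.

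Several members overlap other genes, and the strand setting of the read counting is not given here, so reads of overlapping exons cannot be assigned to one gene with certainty. Acp95EF lies inside Spase22-23, a gene on the opposite strand whose exons cover its own whole span of 1694 bp. All 243 bp of Acp95EF exon are thus shared, 208 bp of them in the longest overlap of 2 exons. The longest exon overlaps of Sfp78E are 134 bp with CG11248 and 24 bp with the long noncoding RNA CR43978. That of Sfp84E is 27 bp with Os-C. Spase22-23, a signal peptidase subunit, counted 85.2, 77.9 and 75.1 CPM in DHR39, against 102, 124, 121, 99.97 and 102 CPM in controls. It fell by 0.47 ± 0.10 (edgeR adjusted p = 0.00705), far less than Acp95EF. CR43978 counted 1.90, 3.51 and 2.35 CPM in DHR39, against 8.42, 7.23, 5.53, 6.60 and 7.13 CPM in controls, and fell by 1.42 ± 0.22 (edgeR adjusted p = 0.000827), close to the -1.30 ± 0.13 of Sfp78E. Os-C fell by 0.45 ± 0.096 (edgeR adjusted p = 0.00639), set beside -2.01 ± 0.18 for Sfp84E, and CG11248 did not pass, at -0.14 ± 0.083 (0.326). Sfp87B lies on the same strand as svp, within its bounds and without exon overlap. The authors' deposited table for DHR39 calls 34 of the 40 members lower and 0 higher at an adjusted p under 0.05, and these are the same 34 genes. Since that table draws on these libraries, it is no second measurement.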

How the data were processed

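Poly(A) RNA of whole flies was sequenced as stranded paired-end libraries, per the labels' protocols. The submitters' processing notes list featureCounts 1.6.3, STAR 2.6.1b, cutadapt 1.16 and DESeq2 in versions 1.22.2 and 1.20.0, and the builds dm6 and BDGP6. Read counts per gene were used as the authors deposited them. From the authors' deposited comparison table, the sign of the log2 fold changes and the adjusted p-values served once, to count calls. The deposited sample sheet also gave genotypes and the replicate names that join libraries. Libraries were grouped by genotype label and numbered in accession order.

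Of 14865 genes, 13506 passed filterByExpr. All were fitted together with edgeR 4.0.16 (R 4.3.3): TMM scaling, quasi-likelihood test of DHR39 against control, two-sided, Benjamini-Hochberg adjustment, calls under 0.05. Each SE is the fold change's absolute log2 value over the square root of F. Alternatives were DESeq2 1.42.0, voom of limma 3.58.1, other scalings and filters, a robust fit and leaving out each library. The procedure was tested on simulated counts, drawn independently for each library. They held no replicate pairing and no single outlying library, so that test does not bear on either. RPKM divides TMM-scaled CPM by union exon length from Ensembl release 115, matched by identifier for 14768 genes. A level of 3 counts is 0.150 to 0.187 CPM per library, for counting error only.

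Replicates differed beyond sampling noise (chi-square over degrees of freedom 17.0 to 42.9). Deviations from group means correlated at 0.266, 0.145 and 0.251 within the same-named pairs, all above 0.1, so the sample sheet's names were taken to pair libraries. The margin was narrow, since libraries that share no name also passed 0.1. DHR39 replicate 3 and control replicate 1 reached 0.143. DHR39 replicate 1 with control replicate 2 reached 0.132, and DHR39 replicate 2 with control replicate 1 reached 0.131. The mark of 0.1 thus did not separate named from unnamed pairs, and the main fit did not use the names.

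Members and lists were chosen with earlier results of these data known. Named in full were the 6 members of highest control level per length, the 8 of most negative fold change, those that rose or did not pass, and those in genome groups. Sfp93F, Acp32CD and other members, the overlapping genes, and NLaz, yellow-g, Acp26Ab, Obp8a, Obp56e, EbpIII, Nplp4, sa and other list genes were named after their values were seen.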

Additional observations from a re-analysis of the deposited data

Results flagged for a closer look

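A gap test of the highest and lowest of the 5 controls was applied to 69 sets of values. Chance marks about 1 in 20 independent sets, but these sets share genes and libraries. Some of their genes were also named after their values were seen. That rate is therefore no measure for the 14 sets that were marked. In 9 of them control replicate 2 stood far above the rest: Sfp60F at 1185 CPM, Sfp87B at 1449 CPM, Sfp24Ba at 110.4 CPM, Sfp24Bb at 470.2 CPM, Sfp24Bc at 18.9 CPM, Acp24A4 at 262 CPM, Ebp at 4799 CPM, EbpII at 1822 CPM and the summed ejaculatory duct and bulb list at 10513 CPM. These values share 1 library and are not independent.

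Control replicate 3 stood high for S-Lap1, a sperm leucyl aminopeptidase, at 1943 CPM, for Mst84Db at 135.5 CPM and for the summed testis list at 10191 CPM. Control replicate 1 stood low for Sfp38D, at 18.5 CPM, and for the summed dosage compensation genes roX1, roX2 and msl-2, at 662 CPM.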

How the results depend on the processing

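The count of 34 members lower in DHR39 was 32 to 35 under the 18 alternatives, and 0 were higher in each. The count was 33 with limma voom, 32 with a robust edgeR fit, 35 with the replicate block and 32 to 34 when each library was left out in turn. Of the 34, 32 were called lower under every alternative, and the exceptions were Sfp24Bd and Sfp79B. With the replicate block the log2 fold changes of Acp24A4 and Sfp24Bc reversed to 0.29 and 0.26, and without control replicate 2 to 0.38 and 0.40. Over the libraries left out in turn they ran from -0.65 to 0.38 for Acp24A4 and from -0.74 to 0.40 for Sfp24Bc. Sfp87B passed with the block alone, and the block changed no other call of a member. Of the listed genes outside the members, EbpII, Obp56e and sa passed with the block and Nplp4 did not. Leaving out a library moved the median log2 fold change of the members between -2.01 and -1.75, and their mean share of counts between 0.211% and 0.250% in DHR39 and between 0.598% and 0.681% in controls. The scale mattered more for all genes than for the members. With library totals alone 1997 genes were higher and 1040 lower, the median of all tested genes was 0.14 and that of the members -1.70. Totals counted without the top 50 genes gave 1479 higher and 1132 lower. The TMM fit gave 889 higher and 1444 lower, and 553 to 955 higher when a library was left out. The cause of these shifts was not tested.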
